A study of Mus musculus with 74 samples.

Results

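The data describe 4529 places in the mouse liver genome where the nuclear receptor corepressor NCOR was bound without a detected peak of its partner subunit GPS2 or of the nuclear receptor PPARα. They are regions of the deposited table of NCOR peaks in *Gps2* WT and LKO livers that overlapped an NCOR peak in at least 2 of the 3 WT libraries and no peak of GPS2 or PPARα in WT livers of the same line. The table holds 80813 regions, and 42453 of them met the requirement on NCOR, so the peaks without GPS2 or PPARα made up 10.67% of these. Of the rest, 29486 overlapped peaks of both GPS2 and PPARα, 5882 overlapped PPARα alone and 2556 overlapped GPS2 alone. Below, peaks with both factors are the class used for comparison.

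All mice were C57BL/6 on chow diet and 8 to 12 weeks old by the labels, and the methods state that they were male. The H3K27ac and H3K4me3 libraries of the *Gps2* line are named as fed in the headers of the deposited counts. WT mice of the *Gps2* line were floxed littermates without Cre, and LKO mice carried the same floxed alleles with Alb-Cre, which acts in hepatocytes, so the other cells of these livers kept the gene. The *Ncor* and *Smrt* lines were hepatocyte LKO mice with their own WT mice, and the *Ppara* line compared whole-body KO mice with WT mice. Chromatin immunoprecipitation sequencing (ChIP-seq) was available for NCOR from 3 WT and 3 *Gps2* LKO and from 3 WT and 3 *Ppara* KO livers, for H3K27ac and H3K4me3 from 2 WT and 2 *Gps2* LKO livers, and for H3K27ac from 3 WT and 3 LKO livers of the *Ncor* and of the *Smrt* line. RNA-seq came from 4 WT and 4 *Gps2* LKO livers. The methods state that several immunoprecipitations were pooled for each ChIP library. In whole liver, fewer cells of a type and less signal per cell cannot be told apart.

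NCOR and its relative SMRT are large scaffold proteins that carry the histone deacetylase HDAC3, the WD-repeat proteins TBL1 and TBLR1 and the small subunit GPS2 to transcription factors without an activating ligand. Deacetylation at such sites lowers H3K27ac, a mark of active promoters and enhancers, while H3K4me3 marks active promoters. PPARα, a receptor for fatty acids, is one of many partners of the complex in hepatocytes, along with thyroid hormone receptors, liver X receptors, REV-ERB proteins of the circadian clock and BCL6.

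Sequencing depth was 17.3 M to 22.1 M tags (M, 1000000) for NCOR in the *Gps2* line, 11.6 M to 14.9 M for NCOR in the *Ppara* line, 25 M to 29.4 M for H3K27ac and 15.3 M to 19.0 M for H3K4me3 in the *Gps2* line, and 34.3 M to 46.1 M for H3K27ac in the *Ncor* and *Smrt* lines. The RNA libraries held 13.2 M to 20.1 M counted reads. ChIP-seq levels are given as normalized tags, which are tags per 10000000 sequenced tags. NCOR replicate 3 placed a smaller share of its tags in these 4529 regions than the other 2 libraries of its genotype, 0.322% against 0.493% to 0.516% in WT and 0.297% against 0.419% to 0.501% in LKO. RNA libraries 2 and 3 of the LKO group stood apart from libraries 1 and 4, with a chi-square per gene of 9.14 to 29.1 for every pair that holds one of them and 1.53 for the pair of 1 and 4. The methods call the replicates biological, and the labels do not tie libraries to single animals.

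Absence of a peak is a statement about the peak lists. GPS2 in WT livers of the *Gps2* line came from 1 library. The 3 PPARα libraries of the same livers differed from each other by less than the sampling noise, with a chi-square per region of 0.923 to 0.938, and were counted as 1 sample. In WT livers of the *Ncor* line, 24.2% of the 4529 regions overlapped a GPS2 peak in at least 1 of 3 libraries and 3.02% in at least 2. PPARα overlapped 43.4% of them in at least 1 WT library of that line and 21.6% in at least 2. In all, 1981 regions (43.7%) had no GPS2 or PPARα peak in any WT library of the *Gps2*, *Ncor* and *Ppara* lines. A GPS2 or PPARα peak of *Gps2* WT livers lay within 500 bases of 26.4% of the regions and within 20000 bases of 82.9%.

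The DNA under 7 of these peaks is shown because the results below return to them. Each window spans 200 bases around the centre of the peak on the forward strand of mm9, and capitals mark matches to the motifs counted below. The first window is chr9:108589817-108590016 in intergenic DNA near *Prkar2a*, which encodes a regulatory subunit of protein kinase A, and holds 2 C/EBP matches (at positions 77 to 84 and 125 to 132) and a CCAAT box. The window at chr16:38286672-38286871 lies in an intron near *Nr1i2*, the gene of the xenobiotic receptor PXR, and holds a single copy of the nuclear receptor core element AGGTCA. The *Nfil3* window, chr13:53076947-53077146, is in the promoter of this clock repressor and has a C/EBP match and an E-box. The *Baat* window, chr4:49519300-49519499, covers the start site of the enzyme that conjugates bile acids and has 2 GATA matches. The *Myc* window, chr15:61815114-61815313, lies upstream of the proto-oncogene and has 2 C/EBP matches. The *Angptl4* window, chr17:33911239-33911438, is near the gene of a secreted inhibitor of lipoprotein lipase and holds a direct repeat with 1 base between its core elements (DR1), the element that PPARα prefers, beside a C/EBP match. The *Fam19a2* window, chr10:122972183-122972382, lies in an intronic LTR element and has a C/EBP match and 2 CCAAT boxes.
Prkar2a: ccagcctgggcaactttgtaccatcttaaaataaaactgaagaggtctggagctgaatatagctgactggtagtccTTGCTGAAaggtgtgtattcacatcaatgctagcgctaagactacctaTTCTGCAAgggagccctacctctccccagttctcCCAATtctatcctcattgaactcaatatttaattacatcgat
Nr1i2: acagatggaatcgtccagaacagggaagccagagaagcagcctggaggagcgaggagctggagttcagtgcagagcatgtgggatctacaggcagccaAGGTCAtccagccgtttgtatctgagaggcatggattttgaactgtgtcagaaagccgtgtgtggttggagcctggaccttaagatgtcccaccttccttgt
Nfil3: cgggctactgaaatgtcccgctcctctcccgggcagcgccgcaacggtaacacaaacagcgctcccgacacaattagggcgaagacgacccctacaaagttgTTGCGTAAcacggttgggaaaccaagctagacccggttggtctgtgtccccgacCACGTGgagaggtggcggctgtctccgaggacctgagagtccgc
Baat: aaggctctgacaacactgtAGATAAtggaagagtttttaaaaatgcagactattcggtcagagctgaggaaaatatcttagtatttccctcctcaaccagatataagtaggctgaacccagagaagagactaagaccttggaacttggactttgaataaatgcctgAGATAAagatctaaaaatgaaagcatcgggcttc
Myc: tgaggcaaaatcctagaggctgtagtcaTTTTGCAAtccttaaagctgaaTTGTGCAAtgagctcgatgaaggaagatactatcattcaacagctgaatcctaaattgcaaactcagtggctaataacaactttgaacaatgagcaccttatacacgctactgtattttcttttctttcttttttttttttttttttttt
Angptl4: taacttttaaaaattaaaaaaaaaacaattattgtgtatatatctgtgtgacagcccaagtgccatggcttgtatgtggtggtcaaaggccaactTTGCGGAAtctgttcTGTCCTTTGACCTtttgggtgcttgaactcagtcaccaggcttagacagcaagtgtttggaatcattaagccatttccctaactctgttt
Fam19a2: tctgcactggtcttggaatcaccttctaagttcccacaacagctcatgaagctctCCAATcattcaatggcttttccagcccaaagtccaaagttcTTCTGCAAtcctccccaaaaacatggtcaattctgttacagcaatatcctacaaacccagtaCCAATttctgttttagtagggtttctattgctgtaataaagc

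The NCOR peaks without GPS2 or PPARα were smaller and narrower than those with both. Their median was 8.10 normalized NCOR tags in WT livers, against 20.6 for peaks with both factors, and their median width was 221 bases against 339. Only 1300 of them (28.7%) were called in all 3 WT lists, against 74.9% of the peaks with both. The requirement of 2 lists sets a floor: among regions without GPS2 or PPARα the median WT level was 2.76 in 0 lists, 4.15 in 1 list, 7.06 in 2 lists and 11.9 in 3 lists. These levels describe the choice of the regions and carry no test.

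These peaks were found mostly away from promoters. A transcription start site (TSS) lay within 1000 bases of 13.4% of them (605 regions, exact 95% interval 12.4% to 14.4%), against 17.1% of the peaks with both factors, and 30.0% were more than 50000 bases away, against 23.2%. Introns held 47.3% and intergenic DNA held 39.4%. Annotated repeats held 22.3%, against 16.4% of the peaks with both, with LTR elements (7.93%), SINEs (6.47%) and LINEs (5.43%) as the main classes. Repeats held 21.1% of the peaks with PPARα alone and 12.8% of those with GPS2 alone. On the X chromosome 19.9% of the NCOR peaks in at least 2 WT lists had neither factor (116 regions), while the share on each of the assembled autosomes was 9.19% to 11.9%. The median WT level of the regions was 7.32 normalized NCOR tags on X and 8.11 on the autosomes. The mice were male, and the cause of the larger share on X was not tested.

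**Figure D1:**
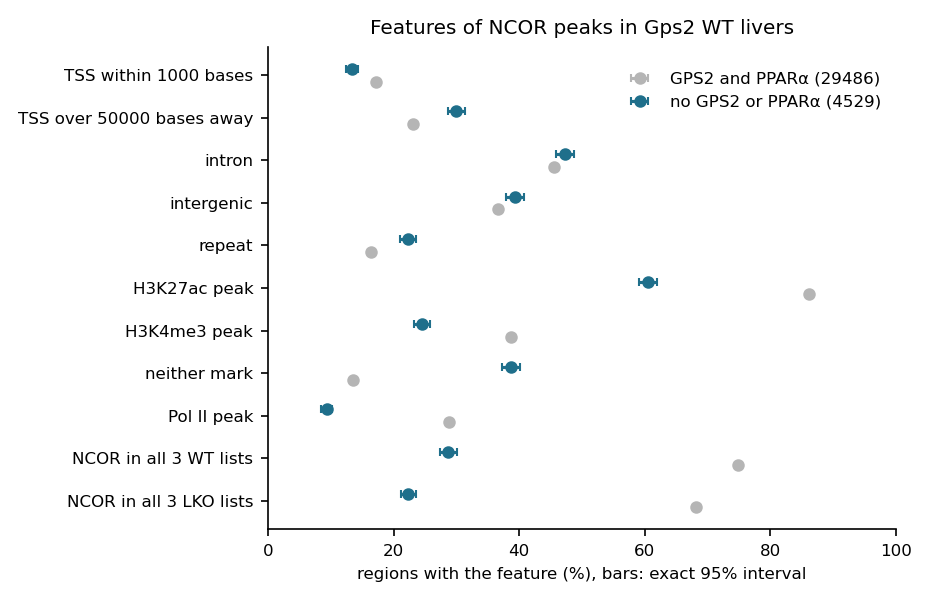
Share of NCOR peaks with each feature, in percent, for peaks without GPS2 or PPARα (4529 regions) and for peaks with both (29486 regions), with exact 95% intervals as bars. H3K27ac covered 60.6% of the former and 86.1% of the latter, and 38.7% against 13.6% had neither histone mark.

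Active histone marks were less frequent at NCOR peaks without GPS2 or PPARα. An H3K27ac peak in at least 1 *Gps2* WT library overlapped 60.6% of them, against 86.1% of the peaks with both, and H3K4me3 overlapped 24.5% against 38.8%. RNA polymerase II (Pol II), from 1 WT library, overlapped 9.34% against 28.8%. Neither histone mark was called at 1753 regions (38.7%), against 13.6% of the peaks with both. The share was 30.8% for peaks with PPARα alone and 18.7% for peaks with GPS2 alone. The difference from the peaks with both was also present at matched NCOR levels. Among regions with 7 to 15 normalized NCOR tags, a range set after the data were seen, H3K27ac overlapped 62.2% of 2380 regions without the factors and 78.2% of 8634 regions with both, and neither mark was called at 37.1% and 21.3%. Promoter location was also less frequent in this range, at 14.2% against 23.1%, and repeats more frequent, at 23.4% against 16.7%.

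The regions fell into 3 main chromatin states. Both marks were present at 1076 regions with a median distance of 870 bases from a TSS, H3K27ac alone at 1667 regions with a median of 24001 bases, and neither mark at 1753 regions with a median of 41208 bases. H3K4me3 alone was present at 33. The median NCOR level in WT was 8.78, 8.52 and 7.38 normalized tags in these 3 states. The peaks were scattered: 3523 genes were nearest to at least 1 of them and 2782 of these genes had a single one. *Ptprg*, a receptor tyrosine phosphatase gene, had 7, and *Tle1*, itself a corepressor gene, *Esr1*, the estrogen receptor α gene, and *Adgrl2* had 6 each.

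The DNA at these peaks, as at peaks with GPS2 alone, held fewer nuclear receptor elements than the DNA at peaks with both factors. The core element AGGTCA was found on either strand in 20.01% of 4523 windows, against 32.6% of windows with both factors and 26.8% of all windows of the table. It was in 20.9% of windows with GPS2 alone and 30.7% of those with PPARα alone. A direct repeat of the core element with 0 to 5 bases between and at most 1 mismatch in 12 letters, which overlaps the core element, was found in 3.63% against 6.82% (5.34% of all windows), and DR1 in 1.15% against 2.77%. Windows with GPS2 alone held any such repeat in 3.41% and DR1 in 0.63%. Those with PPARα alone held them in 6.65% and 3.01%. Since the classes were set by PPARα peaks, fewer of these elements in classes without PPARα can come from the choice. The FOXA motif (TGTTTAC or TGTTTGC) was in 11.5% against 14.8%, and the GC box (GGGCGG) in 6.30% against 9.99%. The GATA motif (AGATAA) was in 14.3% against 11.1%, and 11.4% of all windows. It was in 15.2% of windows with GPS2 alone and 11.7% of those with PPARα alone. C/EBP (TTGCNNAA) was in 20.1% and 20.2%, with 17.1% over all windows. Within the range of 7 to 15 tags, C/EBP was in 22.1% of the windows without the factors and 15.9% of those with both, the core element in 19.3% and 30.7%, and GATA in 14.4% and 10.6%.

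Motif content also varied among the NCOR peaks without GPS2 or PPARα. C/EBP matches were in 25.8% of those called in all 3 WT lists and in 25.6% of those with neither mark, and in 11.7% of those within 1000 bases of a TSS. Regions with a C/EBP match had a median WT level of 8.76 normalized NCOR tags, and 49.2% of them had neither mark. Of regions with a GC box, 54.7% were within 1000 bases of a TSS and 89.8% had H3K27ac. The REV-ERB element (searched by name as its extended core element) was in 12 windows. The median GC content was 45.5% against 49.0% for peaks with both factors, and these letter counts share that difference in base composition.

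**Figure D2:**
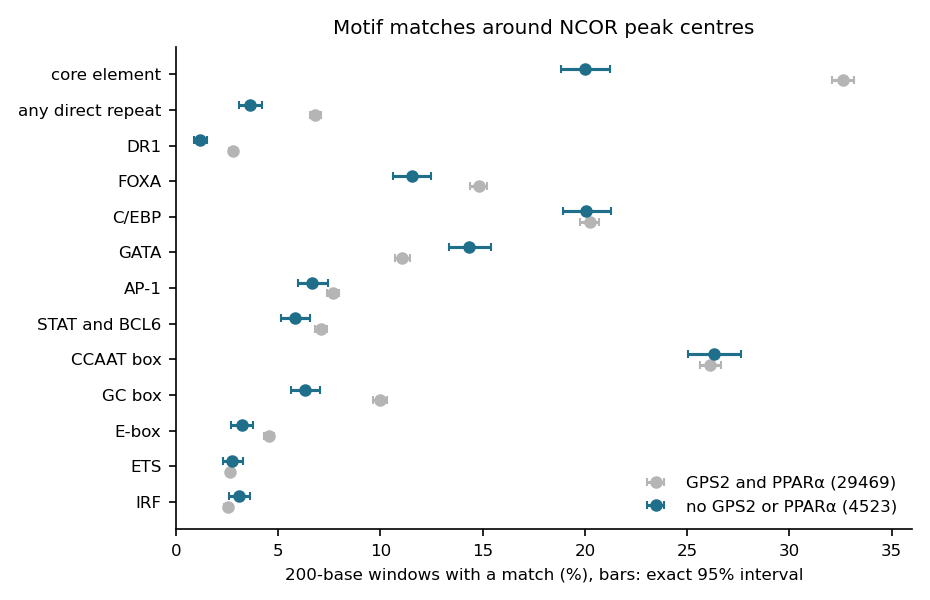
Share of 200-base windows that hold a match to each motif, in percent on the horizontal axis, for NCOR peaks without GPS2 or PPARα (4523 windows) and with both (29469 windows), with exact 95% intervals. The core element, direct repeats, FOXA and the GC box were less frequent without the factors, GATA was more frequent, and C/EBP was at 20.1% and 20.2%. The other letters searched were AP-1 TGANTCA, STAT and BCL6 TTCNNNGAA, CCAAT, E-box CACGTG and ETS CCGGAAG, with IRF by name.

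The 6 NCOR peaks without GPS2 or PPARα with the highest mean WT level were a region of the mitochondrial genome (chrM:16113-16277) and regions nearest to *Gm16291*, *Pisd-ps3*, *Cldn22*, *Prkar2a* and *Nr1i2*. The mitochondrial region had 196, 277 and 205 normalized NCOR tags in the WT libraries and 188, 246 and 192 in the LKO libraries. It was in 9 of 12 NCOR lists of the *Gps2* and *Ppara* lines and in 0 lists of GPS2, PPARα, H3K27ac, H3K4me3 or Pol II. The *Cldn22* region had 57.9, 84.8 and 67.2 tags in WT and 54.9, 48.3 and 78.1 in LKO, in 12 of 12 NCOR lists and 0 lists of the other antibodies. The 200-base window at its centre consists of short repeated units, so the assignment of its tags is uncertain. Neither this region nor the mitochondrial one was checked against input libraries. The *Pisd-ps3* region, in a SINE of a pseudogene, had 101, 108 and 77.1 tags in WT and 131, 137 and 103 in LKO. Its reads can be shared with near-identical copies, so its level is uncertain.

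The *Prkar2a* and *Nr1i2* regions, whose windows are shown above, carried histone marks. At *Prkar2a* (-4558 bases from the TSS) NCOR was 64.7, 59.1 and 36.5 normalized tags in WT and 59.1, 54.0 and 30.4 in LKO, and the region was in all 12 NCOR lists and in all 16 H3K27ac lists of the 3 LKO lines. Over all lines and genotypes it was also in 7 of 16 PPARα lists and 2 of 14 GPS2 lists. At *Nr1i2* the WT values were 51.5, 62.9 and 35.4 and the LKO values 37.5, 61.2 and 28.2, with H3K27ac in all 16 lists and H3K4me3 in all 4. This region was in 9 of 12 NCOR lists, 2 of 16 PPARα lists and 1 of 14 GPS2 lists. In both regions the WT and LKO values overlapped, and replicate 3 was the lowest of each genotype. In the *Ppara* line the *Prkar2a* region had 50.4, 43.9 and 53.9 tags in WT and 54.8, 39.0 and 49.1 in KO.

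**Figure D3:**
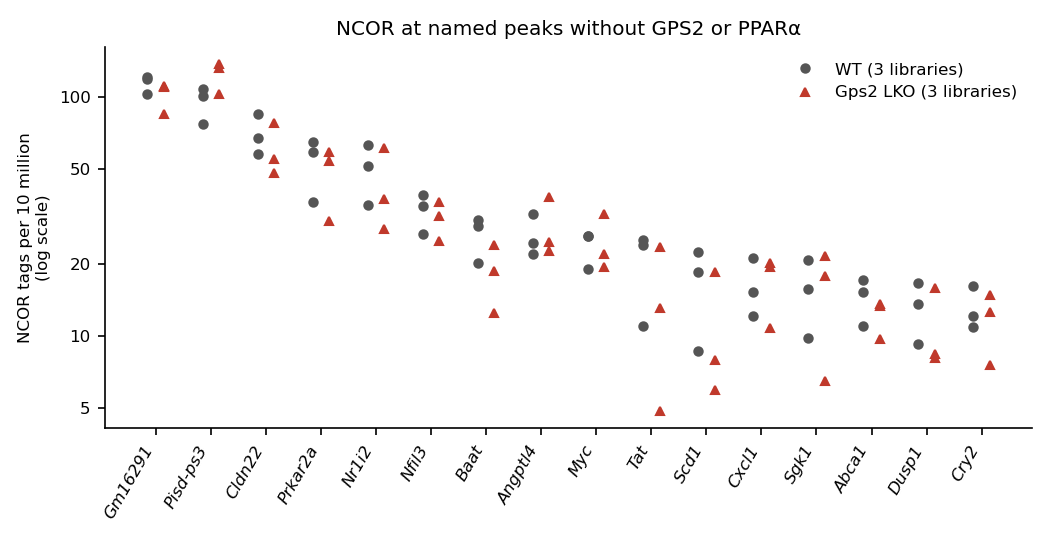
Normalized NCOR tags (log scale) in each WT and each *Gps2* LKO library at 16 named NCOR peaks without GPS2 or PPARα, ordered by WT level. WT and LKO values overlapped at each of these 16 peaks, from *Gm16291* at 103 to 122 in WT and 84.6 to 112 in LKO downwards, and the groups are shown as a description without a test.

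Genes of known NCOR-related programs were counted by the presence of such a peak, without a test of enrichment. Among gene lists fixed for this work, those with a peak within 20000 bases were 6 of 19 clock genes, 6 of 8 glucocorticoid targets, 3 of 18 LXR and lipogenic genes, 3 of 26 PPARα targets, 2 of 9 bile acid genes, 2 of 14 inflammatory genes and 3 of 12 genes of growth and stress. None of the 11 thyroid hormone targets, the 10 genes of the BCL6 and STAT5 axis or the 6 genes of the corepressor complex had one. Of all 14583 genes in the RNA table, 11.1% had such a peak. Of these listed genes with a peak, *Myc* had no peak with both factors within the same distance, while each of the others had one as well.

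Among clock genes the highest level was at the *Nfil3* promoter (-638 bases), with 38.9, 35.0 and 26.7 normalized NCOR tags in WT and 31.9, 36.5 and 25 in LKO. *Nfil3* encodes a repressor that opposes the activator DBP. *Cry2*, a repressor of the core clock, had 16.3, 10.9 and 12.2 tags in WT and 12.7, 14.9 and 7.59 in LKO. *Rora*, which activates through the elements that REV-ERB represses, had 11.8, 13.7 and 10.4 in WT and 16.9, 16.4 and 5.97 in LKO at an intronic LINE element without either mark. The *Rora* region did overlap a PPARα peak in 3 WT libraries of the *Ncor* line and in 3 *Gps2* LKO libraries. The mean WT levels at *Nr1d2*, which encodes REV-ERBβ, *Hlf* and *Arntl* were 9.77, 7.24 and 5.52. Of the 5 of these genes tested for RNA, *Hlf*, an output factor of the clock, fell in LKO, from 1988 ± 45.8 to 1082 ± 113 normalized counts (SD, n = 4 each, edgeR adjusted p = 9.0e-07), and the RNA of the other 4 did not pass.

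Glucocorticoid targets included *Tat*, a tyrosine-degrading enzyme gene, with 25.3, 24.1 and 11.0 tags in WT and 13.1, 23.6 and 4.88 in LKO. *Sgk1*, a kinase gene, had 15.8, 20.8 and 9.85 in WT and 17.8, 21.6 and 6.51 in LKO at its promoter. *Dusp1*, a MAP kinase phosphatase gene, had 16.7, 13.7 and 9.28 in WT and 8.45, 15.9 and 8.14 in LKO. The groups overlapped at these 3 regions. RNA rose in LKO for 4 of the 6 genes, while 23.4% of all 12220 tested genes were called up and 21.4% down: *Sgk1* from 377 ± 18.2 to 715 ± 55.8 normalized counts (adjusted p = 9.1e-07), *Dusp1* from 1270 ± 76.9 to 1849 ± 110 (adjusted p = 3.9e-05), *Pdk4* from 35.7 ± 9.72 to 81.3 ± 5.22 (adjusted p = 0.00015) and *Tat* from 40186 ± 641 to 45321 ± 1235 (adjusted p = 0.012). The *Tat* difference was -0.0089 on the log2 scale with library totals in place of TMM scaling. *Fkbp5* and *Zbtb16* did not pass.

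Among lipid genes, *Scd1*, the stearoyl-CoA desaturase, had 22.6, 18.6 and 8.70 tags in WT and 7.98, 18.5 and 5.97 in LKO at its promoter, and its RNA rose 1.66-fold (adjusted p = 5.6e-06). *Abca1*, the cholesterol efflux transporter and an LXR target, had 17.2, 15.3 and 11.0 tags in WT and 13.6, 13.4 and 9.76 in LKO in an intron, and its RNA fell 1.49-fold (adjusted p = 0.00072). Of the PPARα targets, *Angptl4* had 32.6, 24.6 and 22.0 tags in WT and 24.9, 38.0 and 22.8 in LKO at a region with a DR1 but no called PPARα peak in *Gps2* WT or LKO livers. This region overlapped a PPARα peak in 2 of 3 WT libraries of the *Ncor* line. *Angptl4* RNA fell 1.28-fold (adjusted p = 0.0013), while *Cd36*, a fatty acid transporter, rose 1.74-fold (adjusted p = 5.9e-05) and *Acot2*, a mitochondrial thioesterase, rose 3.85-fold (adjusted p = 1.2e-06).

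At the *Baat* promoter NCOR was 28.9, 30.6 and 20.3 normalized tags in WT and 18.8, 24.2 and 12.5 in LKO. The groups overlapped, and *Baat* RNA was 4256 ± 88.7 in WT and 3937 ± 197 in LKO (adjusted p = 0.12). At *Nr1h4*, the bile acid receptor gene FXR, an intronic region had 8.14, 8.76 and 7.54 tags in WT livers, with 6.57, 3.6 and 4.34 in LKO livers. Of the 25 regions named by level or by gene list, this was the 1 whose groups did not overlap, given as a description without a test, and *Nr1h4* RNA did not pass (adjusted p = 0.46). Near *Myc* the NCOR levels were 26.2, 26.3 and 19.1 in WT livers, with 22.1, 32.4 and 19.5 in LKO livers, and *Myc* RNA fell 1.22-fold (adjusted p = 0.023). The *Myc* region did overlap a GPS2 peak in 3 WT libraries of the *Ncor* line and 2 of the *Ppara* line. It also overlapped a PPARα peak in 1 WT library of each of these lines. Of the inflammatory genes, *Cxcl1*, a neutrophil chemokine, had 21.3, 15.3 and 12.2 tags in WT and 20.2, 19.5 and 10.8 in LKO, and its RNA fell 2.21-fold (adjusted p = 6.9e-06). *Tnfaip3*, an inhibitor of NF-κB signalling, had a mean of 9.67 tags in WT and its RNA fell 2.19-fold (adjusted p = 5.2e-06).

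Markers of liver cell types were read in the same way. Of 12 endothelial markers, 7 had one within 20000 bases (*Cdh5*, *Clec4g*, *Kdr*, *Lyve1*, *Oit3*, *Stab2* and *Tek*), and 3 of these had no peak with both factors. Of 12 hepatocyte markers 2 had one (*Fgb* and *Ttr*), and none of the 12 macrophage, 10 stellate, 7 cholangiocyte or 8 lymphocyte markers did. Levels at the endothelial genes were low, from a mean WT level of 4.75 tags at *Cdh5*, an adherens junction gene, to 9.92 at *Tek*, the angiopoietin receptor, where the WT values were 13.6, 10.4 and 5.80 and the LKO values 11.3, 21.6 and 4.34. Summed RNA of the endothelial markers was 298 to 308 CPM (counts per 1000000 counted reads) in WT and 289 to 330 in LKO. Macrophage markers summed to 173 to 177 CPM in WT and 214 to 239 in LKO, stellate markers to 216 to 227 and 346 to 382, cholangiocyte markers to 86.3 to 91.8 and 103 to 115, and hepatocyte markers to 133400 to 136880 and 158200 to 173360. Lymphocyte markers summed to 7.67 to 9.77 CPM in WT and 9.11 to 10.3 in LKO. No listed marker in the RNA table was at 0 in every library, and their part in the RNA results was not tested.

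The first comparison asks whether NCOR stayed at these places when *Gps2* was deleted. *Gps2* RNA itself was 261, 251, 266 and 240 normalized counts in the WT libraries and 202, 157, 146 and 205 in the LKO libraries, a fall of 0.53 ± 0.11 on the log2 scale (SE, n = 4 each, adjusted p = 0.0021), with no overlap of the groups. RNA of *Ncor1*, which encodes NCOR, fell 1.55-fold (adjusted p = 0.0021). *Tbl1x* fell 1.49-fold (adjusted p = 0.013), while *Hdac3* and *Tbl1xr1* did not pass (adjusted p = 0.20 and 0.30).

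NCOR summed over the 4529 regions overlapped between *Gps2* LKO and WT livers. Summed over them, NCOR was 51577, 49314 and 32209 normalized tags in WT and 41859, 50129 and 29662 in LKO, a difference of -0.13 on the log2 scale, given without a test. The groups overlapped, and the spread between replicates was 0.37 (SD) in WT and 0.38 in LKO. Without LKO replicate 3 the difference was 0.077. Because the regions were chosen by WT peaks, a lower value in LKO can come from the choice. The log2 ratio to the peaks with both factors differed by -0.04, which does not remove the effect of the choice, since the classes differ in level and in the number of lists. At matched WT levels the median log2 fold change per region was -0.13 against -0.02 for peaks with both at 7 to 10 tags and -0.19 against -0.06 at 15 to 30 tags. These ranges were set by the same WT libraries, so this match does not remove the effect of the choice either.

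Region by region, 1 of the 4529 passed an adjusted p below 0.05, downwards, and 0 upwards (edgeR quasi-likelihood test, 3 against 3). Over all 80813 regions tested, 0.00495% were called down and 0.0124% up, and nothing is read from the count, since the choice used this contrast. The median log2 fold change was -0.15, against -0.07 for peaks with both factors and -0.03 for all regions, and 156 regions were past an unadjusted p of 0.05, as were 2253 of all 80813. DESeq2 called 4, 1 up and 3 down, and 76 of all regions. The region past the threshold in edgeR lies in a LINE element nearest to *N4bp2* (chr5:66144878-66145081) and was singled out after its values were seen. Its raw tags were 36, 11 and 5 in WT and 1, 1 and 4 in LKO (log2 fold change -3.00), so the call rests on few tags, and DESeq2 gave it no adjusted p.

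NCOR lists of LKO livers held these regions less often than the peaks with both. At least 2 of the 3 LKO lists held 54.3% of them, against 90.3% of the peaks with both, and 19.8% were in no LKO list. The WT lists chose the regions, 71.3% of them by only 2 lists, so a lower LKO share can come from the choice. In the range of 7 to 15 tags the shares were 63.7% and 79.7%. They were 58.4% and 69.9% at 7 to 10 tags and 72.0% and 85.2% at 10 to 15 tags. In the WT livers of the *Ppara* line, which the choice did not use, at least 2 of 3 lists held 85.3% and all 3 lists held 70.3%, against 98.8% in at least 2 lists for the peaks with both. NCOR summed over these regions was also higher in those livers, at 76955 to 93300 normalized tags against 29662 to 50129 in *Gps2* LKO livers. The shares in the 2 lines are therefore not a like comparison. Regions within 1000 bases of a TSS were found again less often, with 61.0% in at least 2 *Ppara* WT lists against 89.0% of the more distant ones.

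Loss of *Ppara* served as a comparison in livers that the choice of regions did not use. In the NCOR table of the *Ppara* line 4471 regions overlapped 4343 of the peaks. Summed over the 4463 that overlapped no other class, NCOR was 82425, 76955 and 93300 normalized tags in WT and 73631, 76986 and 55681 in KO, a log2 difference of -0.30 (exact permutation test, two-sided, p = 0.20, where 3 against 3 libraries cannot go below 0.1). The groups overlapped, since the highest KO value passed the lowest WT value. NCOR at the peaks with both factors differed by -0.25 on the same scale (exact permutation p = 0.20), and the log2 ratio of the classes was -4.16, -4.18 and -4.17 in WT and -4.20, -4.20 and -4.26 in KO. This difference of -0.05 separated the groups without overlap (exact permutation p = 0.10, the smallest p possible). With medians of log2 tags in place of sums the groups were not separated (exact permutation p = 0.50).

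In the test per region, 91 of the 4471 fell in *Ppara* KO livers and 12 rose (edgeR), while 2.51% of all 115042 regions were called down and 0.136% up. The median log2 fold change was -0.36, and that over all regions was -0.32. With TMM scaling the median over all regions moved to -0.02 and the split turned to 21 down and 52 up, so directions here are relative to the total tags. DESeq2 called 12, and the 103 calls became 44 without WT replicate 1, 29 without WT replicate 3, 59 without KO replicate 1 and 33 without KO replicate 3. The peaks with both factors had 1443 called down and 20 up of 31756.

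Named by the size of their change among calls in the *Ppara* line, with separated groups and at least 20 tags, a rule carried over from the *Gps2* line after the data were seen, the largest fall was at *Abcd2*, which encodes a peroxisomal transporter of fatty acids. NCOR there was 30.9, 18.9 and 43.8 normalized tags in WT and 7.36, 8.75 and 5.69 in KO, 4.25-fold lower (adjusted p = 1.3e-05), and all KO values were below all WT values. In the *Gps2* line the same region had 24.4, 14.2 and 10.4 tags in WT and 13.1, 29.3 and 10.3 in LKO. *Abcd2* RNA rose 3.05-fold in *Gps2* LKO livers (adjusted p = 7.6e-10). Near *Sult3a2*, a sulfotransferase gene, NCOR at -30382 bases from the TSS fell from 43.1, 60.2 and 55.6 to 27, 16.8 and 12.1 (2.86-fold, adjusted p = 0.00012). The regions nearest to *Gjb5* and *Mir7235*, -107600 and 12226 bases from the TSS, fell 3.10-fold and 2.81-fold (adjusted p = 0.0015 and 0.0077). Neither passed in DESeq2 (adjusted p = 0.14 and 0.31). The *Abca1* region of the LXR list was 35.8, 33.5 and 36.2 tags in WT and 17.2, 16.8 and 11.4 in KO (log2 fold change -1.22 ± 0.34, adjusted p = 0.019, and 0.058 with TMM scaling). Of the 9 regions named here and below for this line, 5 did not pass in DESeq2. With the replicate number as a block 3 did not pass.

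The largest rises in *Ppara* KO livers were at regions nearest to *Arhgap15os* (from 8.94, 15.5 and 2.53 to 30.2, 39.7 and 20.6 tags, 3.35-fold, adjusted p = 0.00051), *Rnf217* (2.68-fold, adjusted p = 0.014), *Neto1* (2.48-fold, adjusted p = 0.024) and *Hs3st5* (2.37-fold, adjusted p = 0.032). In the same order they lay -77533, -368860, -8434 and -461220 bases from the TSS. Without WT replicate 3 of the *Ppara* line none of these 4 passed, with adjusted p of 0.090, 0.34, 0.17 and 0.37 and the same direction in each. *Rnf217* and *Hs3st5* did not pass in DESeq2 (adjusted p = 0.069 and 0.075), and *Neto1* and *Hs3st5* did not pass with the replicate number as a block (adjusted p = 0.057 and 0.060). The *Arhgap15os* region carried both histone marks in *Gps2* WT livers and the other 3 carried none. *Rnf217* RNA did not pass in *Gps2* LKO livers (adjusted p = 0.11).

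**Figure D4:**
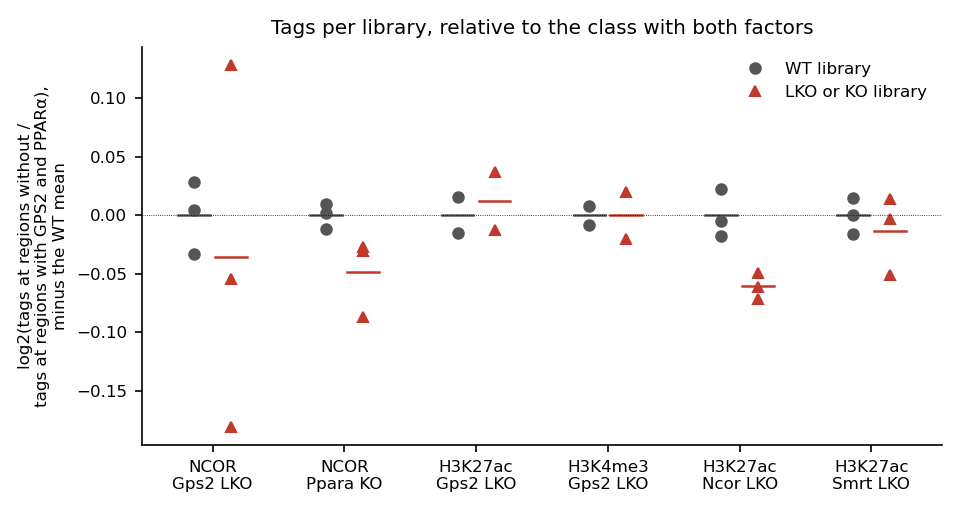
Log2 ratio of tags at regions without GPS2 or PPARα to tags at regions with both, per library, after subtraction of the WT mean of each comparison. Circles are WT and triangles LKO or KO libraries, and the short lines are group means. The groups separate for NCOR in *Ppara* KO (difference -0.05) and H3K27ac in *Ncor* LKO (-0.06), and overlap in the other comparisons.

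H3K27ac at these places was then compared in *Gps2* LKO and WT livers. Rows of the table of histone peaks are wide, and of the 2835 that overlapped one of the regions 1569 held no NCOR peak of the other classes. Over these 1569 rows H3K27ac was 164885 and 159981 normalized tags in WT and 168961 and 168295 in LKO. Relative to rows with both factors the log2 ratio changed by 0.01 (exact permutation test p = 0.67, and 2 against 2 libraries cannot go below 0.33). Row by row, 39 of 2835 rose and 13 fell, while 1.21% of all 47108 rows were called up and 0.212% down. Among the 1569 rows without an NCOR peak of another class 10 rose and 5 fell. Without WT replicate 1 none of the 2835 passed and without WT replicate 2 only 1 did, against 196 without LKO replicate 1 and 108 without LKO replicate 2. With TMM scaling the split was 18 up and 14 down.

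The largest rise was in an intron of *Fam19a2*, a gene of secreted chemokine-like proteins, in a row that held no NCOR peak of another class (chr10:122970329-122975896). This row lay 271980 bases from the TSS. H3K27ac was 83.1 and 150 normalized tags in WT and 553 and 547 in LKO, 4.67-fold higher (log2 fold change 2.22 ± 0.22, adjusted p = 0.0082, and 0.072 without WT replicate 1). In the same row H3K4me3 measured 35.0 and 97.7 in WT livers, with 530 and 477 in LKO livers, 7.69-fold higher (adjusted p = 6.1e-05). NCOR at the peak inside it (chr10:122972186-122972379), an LTR element whose sequence is shown above, measured 11.3, 8.76 and 6.38 in WT livers, with 17.8, 24.7 and 13.6 in LKO livers, without overlap of the groups and given without a test, since the choice used these libraries. *Fam19a2* RNA was 4.93, 5.67, 3.70 and 2.02 normalized counts in WT and 141, 125, 111 and 136 in LKO, 30.3-fold higher (adjusted p = 7.6e-10). In H3K27ac, H3K4me3 and RNA every LKO library was above every WT library.

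**Figure D5:**
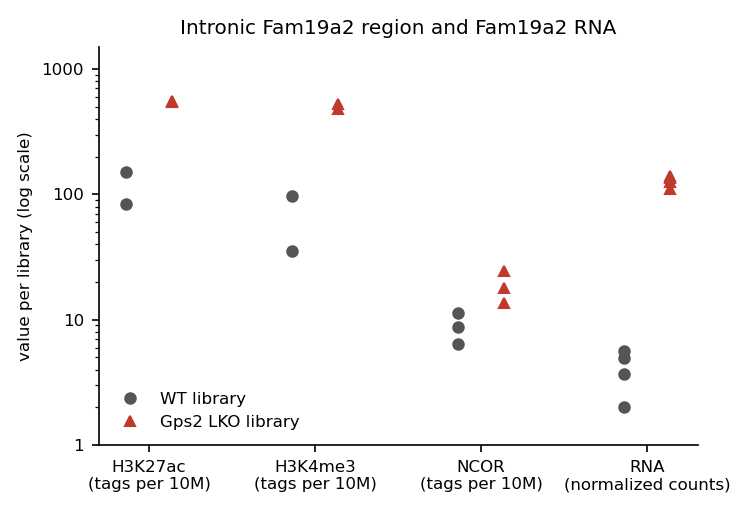
Values per library at the intronic *Fam19a2* region, 271980 bases from the TSS, and for *Fam19a2* RNA, on a log scale. ChIP-seq values are normalized tags and RNA values are normalized counts. LKO libraries lie above WT libraries in the 4 readouts, from 547 to 553 against 83.1 to 150 for H3K27ac.

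The largest falls of H3K27ac were near *Selenbp2*, *Ccny* and *Phlda2*. Near *Selenbp2*, which encodes a selenium-binding protein, H3K27ac measured 78.7 and 64.7 tags in WT livers, with 20.7 and 7.81 in LKO livers, 5.08-fold lower (adjusted p = 0.027). *Selenbp2* RNA fell from 10280 ± 335 to 1578 ± 147 normalized counts (n = 4 each, adjusted p = 3.9e-12). At the *Phlda2* promoter H3K27ac fell 2.47-fold (adjusted p = 0.023), in a row whose NCOR peak lies in a SINE, without another class. *Ccny*, a cyclin gene, had a row with 620 and 738 tags in WT and 270 and 209 in LKO (2.83-fold, adjusted p = 0.0079), which also held peaks with both factors. *Plppr1* and *Kcnip4*, in rows that also held peaks with both factors, rose 3.39-fold and 3.30-fold (adjusted p = 0.022 and 0.030). Each of these 5 calls was lost when either WT library was left out, with adjusted p from 0.15 to 0.32, while the direction was kept.

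H3K4me3 rose in 20 and fell in 1 of 1421 rows that overlapped the regions, and 0.798% of all 22814 rows were called up and 0.118% down. Only 3 of the 596 rows without an NCOR peak of another class were called, all of them up. After *Fam19a2* the largest rises were at *Slc16a5*, a monocarboxylate transporter gene (from 87.3 and 108 to 283 and 235 normalized tags, adjusted p = 0.00085), and *Krt23*, a keratin gene (from 29.7 and 39.1 to 84.7 and 92.6, adjusted p = 0.011, and 0.069 without WT replicate 1). RNA of *Slc16a5* rose 7.00-fold and that of *Krt23* 7.62-fold (adjusted p = 3.4e-10 and 3.9e-06). The fall was at *Nat8*, an acetyltransferase gene, from 110 and 102 to 55.2 and 38.9 tags (adjusted p = 0.026, and 0.10, 0.12 and 0.21 without WT replicate 1, WT replicate 2 and LKO replicate 2), and *Nat8* RNA fell 11.9-fold (adjusted p = 7.4e-10). The *Slc16a5*, *Krt23* and *Nat8* rows also held peaks with both factors.

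The *Ncor* and *Smrt* lines show what happened to H3K27ac when the scaffolds themselves were deleted. In *Ncor* LKO livers 73 of 2792 rows over the regions rose and 31 fell (edgeR, 3 against 3), while 2.87% of all 50495 rows were called up and 1.02% down. The 104 calls became 47, 19 and 37 without WT replicates 1, 2 and 3 in turn and 69 without LKO replicate 3. Rows with both factors were called in 7.49% of 15415 cases, and rows with neither factor and no other class in 2.51% of 1596 cases. The log2 ratio of the 2 classes was -4.39, -4.42 and -4.43 in WT and -4.46, -4.47 and -4.48 in *Ncor* LKO livers. Relative to the regions with both, H3K27ac at the regions without GPS2 or PPARα was 0.959 times its WT level, and the groups did not overlap (exact permutation p = 0.10, the smallest p possible). The sum over the 1596 rows themselves differed by -0.02 on the log2 scale (exact permutation p = 0.60).

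In *Smrt* LKO livers none of 2671 rows was called by edgeR in either direction, as in 0.0% of all 49180 rows, while 168 were past an unadjusted p of 0.05, as were 3017 of all rows. DESeq2 called 8 of these rows and 71 of all rows. The log2 ratio of the classes changed by -0.01 (exact permutation p = 0.60). The difference between the *Ncor* and the *Smrt* effect on this ratio was -0.05 (exact permutation within each line, p = 0.195).

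The largest rise in *Ncor* LKO livers was at *Pnpla5*, a lipase gene, from 29.4, 8.87 and 19.5 to 264, 78.6 and 86.3 normalized tags (7.46-fold, adjusted p = 0.021), in a row that also held peaks with both factors. Rows with no other class followed at *Mup17* (57.2, 26.9 and 13.9 in WT, 169, 158 and 166 in LKO, adjusted p = 0.015) and *Mup9* (12.7, 6.71 and 4.25 in WT, 31.2, 29.8 and 47.3 in LKO, adjusted p = 0.012). Without WT replicate 2 of this line none of these 3 passed, and *Pnpla5* did not pass without WT replicate 3 either. *Mup17* and *Mup9* encode major urinary proteins, a family of near-identical copies, so the assignment of their tags is uncertain. In *Gps2* LKO livers *Mup17* RNA fell 83.1-fold (adjusted p = 3.3e-13) and *Pnpla5* RNA rose 7.20-fold (adjusted p = 1.4e-06).

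The largest falls in *Ncor* LKO livers were near *Atg4a*, *Rpp40* and *Ccny*. Near *Atg4a*, an autophagy protease gene on the X chromosome, H3K27ac was 126, 84.4 and 64.0 tags in WT and 7.46, 6.59 and 9.98 in LKO (11.3-fold, adjusted p = 0.0027), in a row that also held peaks of other classes. Near *Rpp40*, a subunit gene of RNase P, H3K27ac measured 21.7, 19.2 and 25.5 tags in WT livers, with 1.36, 3.42 and 2.17 in LKO livers (9.56-fold, adjusted p = 0.0027), in a row whose NCOR peak lies in an LTR element, without another class. The *Ccny* row that fell in *Gps2* LKO livers was 3.12-fold lower here as well, with 925, 1105 and 704 tags in WT and 277, 249 and 349 in LKO (adjusted p = 0.0048). In *Gps2* LKO livers RNA of *Atg4a* and *Ccny* fell 1.56-fold and 1.23-fold (adjusted p = 0.0070 and 0.012). *Rpp40* RNA did not pass (adjusted p = 0.77).

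RNA was compared for the 594 genes with one of these peaks within 1000 bases of their TSS. Of the 518 that were tested, 103 rose and 119 fell in *Gps2* LKO livers, 19.9% and 23.0%, while 23.4% of all 12220 tested genes were called up and 21.4% down. The median log2 fold change was 0.01, and that of all genes was 0.03. Genes with a promoter peak with both factors and none without gave 21.7% up and 25.5% down of 3955. Scaling by library totals moved the median over all genes to -0.15 on the log2 scale and the split to 54 up and 211 down.

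The largest rise among them was *Apoa4*, an apolipoprotein gene induced by fat in the liver, from 3740, 3529, 3528 and 3719 to 76917, 58489, 73060 and 75576 normalized counts (19.6-fold, adjusted p = 3.5e-13). NCOR at its promoter (chr9:46048956-46049126) was 18.1, 12.6 and 8.12 normalized tags in WT and 15.5, 19.0 and 3.25 in LKO, with overlapping groups. *Cyp2c68*, a cytochrome P450 gene, rose 2.70-fold (adjusted p = 8.9e-09), and *Gpc1*, *Klf11* and *Rps19* rose 2.12-fold, 2.11-fold and 1.90-fold (adjusted p from 8.1e-06 to 6.3e-05). *Klf11* encodes a zinc finger factor, *Gpc1* a heparan sulfate proteoglycan and *Rps19* a ribosomal protein.

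The largest fall was *Mup18*, from 390, 417, 385 and 364 to 17.8, 8.89, 2.95 and 17.0 normalized counts (35.2-fold, adjusted p = 5.0e-10), with NCOR at its promoter at 5.89 normalized tags in WT and 5.90 in LKO. As above, reads of this family are uncertain. *Rsad1* fell 3.10-fold, *Zfp809*, which silences retroviral DNA, fell 2.75-fold, *Entpd7*, a nucleotidase gene, fell 1.98-fold and *Rcor1*, the scaffold of another corepressor complex, fell 1.86-fold (adjusted p from 3.0e-07 to 0.0018). NCOR at the peaks without GPS2 or PPARα of these 10 promoters lay between 3.20 normalized tags at *Entpd7* in LKO and 21.2 at *Cyp2c68* in LKO (group means). The promoters of *Klf11*, *Rsad1* and *Zfp809* also held an NCOR peak with both factors.

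Other antibodies were read at rows of their own tables that overlapped the regions, as values only. PPARα rows over the regions numbered 2152 and held 10985 to 12050 normalized tags in the 3 WT libraries counted as 1 sample and 22147 to 24557 in the 3 LKO libraries. PPARα at rows with both factors was higher in LKO too, at 1207200 to 1358800 in WT and 1724200 to 1968600 in LKO. Since the regions were required to lack a PPARα peak in WT, the higher LKO level can come from the choice. At least 1 LKO list of PPARα held 46.4% of the regions and all 3 held 12.8%. Pol II, from 1 library each, was 21158 (95% Poisson interval 20895 to 21424, counting error only) in WT and 22028 (21762 to 22297) in LKO over 521 rows, without a replicate check. GPS2 in the *Ncor* line summed to 2740 to 6650 in WT and 2332 to 2994 in *Ncor* LKO over 1038 rows, and the groups overlapped. In the *Ppara* line it summed to 2337, 2283 and 4215 in WT and 1986, 1758 and 1218 in KO over 346 rows, and every KO value was below every WT value. At rows with both factors GPS2 in that line was 180170 to 351690 in WT and 73791 to 152900 in KO, which did not overlap either. The GPS2 rows of each line are merged peaks called in that line, so lower LKO or KO values can come from the choice.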

How the data were processed

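ChIP-seq and RNA-seq were performed on livers of WT, LKO and KO mice. The authors aligned ChIP-seq reads to mm9 with Bowtie (Bowtie2 in the submitters' processing notes), called peaks and counted tags with HOMER, and deposited raw tag counts per merged peak for each antibody and line, with peak lists per library. For RNA-seq the authors deposited raw read counts per gene beside columns of their own comparison, which were not used. Scores in the deposited peak lists were not used, only positions. The sources used here do not name the versions of these tools.

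Regions were assigned to classes by overlap of at least 1 base with peak lists. Tags were scaled to 10000000 by the total tags in the file headers. Tables were tested whole with edgeR 4.0.16 (quasi-likelihood, Benjamini-Hochberg, threshold 0.05) in R 4.3.3, with header totals for ChIP-seq and TMM with filterByExpr for RNA-seq. DESeq2 1.42.0, other scaling, filters, a replicate block and left-out libraries were alternatives. Sums were compared by exact permutation over libraries, two-sided. Intervals of shares are exact binomial at 95% and cover counting error only. The model fits were tested on simulated data. The regions and gene lists were chosen with earlier results of these data known. Named were the 6 strongest regions, up to 3 per gene list by WT level, the 3 largest called changes per direction in histone marks, the 5 per direction among promoter genes and the corepressor genes, of which 1 is not reported here. Motifs were searched in 200-base windows of the NCBIM37 (mm9) reference on both strands. Input libraries were not used.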

Additional observations from a re-analysis of the deposited data

Results flagged for a closer look

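Among 102 groups of 4 RNA values examined, 3 held a library far from the other 3, and chance gives about 1 in 20 such groups. For *Nr1h4*, the bile acid receptor gene, 1 WT library had 2542 normalized counts in a group that reached 2672, a gap of 0.947 of the range. For *Myc*, 1 LKO library had 193.7 where the highest was 218.3, a gap of 0.893 of the range. For *Mdm2*, which encodes a ubiquitin ligase of p53, 1 LKO library had 533 where the highest was 616, a gap of 0.839 of the range.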

How the results depend on the processing

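The number of regions with changed NCOR in *Gps2* LKO livers was 1, and it was 21 with TMM scaling, 4 with DESeq2, 0 with a filter on low counts, 0 among regions in all 3 WT lists and 0 to 8 with 1 library left out. Over all regions tested the calls were 14, then 359 with TMM scaling, 76 with DESeq2 and 8 with the filter. With 1 library left out they were 0 to 78. For NCOR in *Ppara* KO livers 103 calls became 12 with DESeq2 and 29 to 99 with 1 library left out. Over all regions 3042 calls became 606 and 1207 to 2855 under the same settings. H3K27ac calls in *Gps2* LKO livers went from 52 to 32 with TMM scaling and to 0 to 196 with 1 library left out, and H3K4me3 calls from 21 to 14 to 22. Over all rows the H3K27ac calls went from 668 to 382 and to 0 to 3006, and the H3K4me3 calls from 209 to 110 to 236. In *Ncor* LKO livers 104 calls became 182 with DESeq2 and 19 to 122 with 1 library left out, and in *Smrt* LKO livers 0 became 8 with DESeq2. Over all rows the 1964 calls in *Ncor* LKO livers became 3388 and 281 to 2383, and in *Smrt* LKO livers 0 became 71. With 1 library left out, RNA calls ranged from 171 to 283 at promoter genes and from 4366 to 6970 over all genes. With the replicate number as a block the counts were 21 and 61 for NCOR in *Gps2* LKO and *Ppara* KO, 169 and 61 for H3K27ac and H3K4me3 in *Gps2* LKO, and 55 for H3K27ac in *Ncor* LKO. Over all regions or rows the block gave 288, 1972, 2464, 701 and 972 calls in the same order. Same-numbered libraries correlated by -0.19 to 0.34, and libraries with different numbers by -0.375 to 0.225. For NCOR in the *Ppara* line the pairs of replicates 2 and of replicates 3 had 0.297 and 0.335. With 2 against 2 libraries the correlations mirror each other and cannot decide on pairing. Whether libraries were paired is not settled, and the main fits took them to share only a number. The summed NCOR difference in *Gps2* LKO ranged from -0.35 to 0.077 and its ratio to the other class from -0.12 to 0.037 with 1 library left out. The H3K27ac ratio in *Gps2* LKO was -0.022 by medians and -0.013 to 0.037 with 1 library left out. The ratio ranged from -0.059 to -0.029 in *Ppara* KO and from -0.070 to -0.049 in *Ncor* LKO. *Tat* RNA was -0.0089 by library totals. A TSS lay within 3000 bases of 19.8% of the regions and within 1000 bases of 8.85% of those in all 3 lists. H3K27ac in both WT libraries gave 51.1%, in regions of all 3 lists 62.9% and at 7 to 15 tags 62.2%, and H3K4me3 gave 20.9%, 21.2% and 25.8%. The core receptor element was in 17.7% of regions in all 3 lists, and C/EBP in 25.8% of these and 22.1% at 7 to 15 tags. Of the 9 regions named for *Ppara* KO livers, 5 did not pass in DESeq2, 1 with TMM scaling and 3 with the block, in the same direction. The cause of these changes was not tested.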
